A study of Mus musculus with 18 samples.

Results

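The neutrophil granule and S100 genes described here are 10 of the 20298 genes in the expression table: Elane, Mpo, Prtn3 and Ctsg of the primary granules, Ltf, Camp, Ngp and Lcn2 of the secondary granules, and the pair S100a8 and S100a9. They were chosen by name, and all 10 symbols were found once, ignoring case. RNA was sequenced from 18 libraries in 6 groups of 3. The groups were Ly6C+ CCR2+ monocytes of WT and DKI C57BL/6 mice before stimulation (day 0), and the monocyte-derived cells (MDCs) that they gave after 3 or 6 days with GM-CSF at 20 ng/mL. The DKI mice are double knockin mice whose mutated STAT5A and STAT5B N-domains let STAT5 form dimers but not tetramers, in every cell of the mouse. The ages of the mice, and whether marrow was pooled, are not given in the sources used here. The monocytes were enriched by negative selection, a step that removes other cells by their surface markers and does not sort the cells that stay. Bone marrow is given as the source in the description of the series, although the tissue label reads liver. The summed level of 8 hepatocyte markers was at most 0.0604 RPKM in the day 0 libraries, and all 8 were listed at 0 in the 12 MDC libraries.

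Neutrophils load their granules in an order that follows their maturation. Myeloid progenitors and promyelocytes make the primary (azurophil) granules, which hold myeloperoxidase and the serine proteases neutrophil elastase, proteinase 3 and cathepsin G. Myelocytes make the secondary (specific) granules, which hold lactoferrin, the cathelicidin precursor, neutrophilic granule protein and lipocalin 2. S100A8 and S100A9 form calprotectin, an abundant calcium-binding protein of the cytosol of neutrophils and classical monocytes. Progenitors shared by the neutrophil and monocyte lineages also transcribe the primary granule genes, so that their RNA is not particular to neutrophils.

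The genes lie in a few places of the mouse genome (mm10). Prtn3 (chromosome 10, 79879667 to 79883174) and Elane (chromosome 10, 79886312 to 79888216) are neighbours with 3137 bp between them. Ltf, Camp and Ngp are on chromosome 9, and S100a8 and S100a9 are 22595 bp apart on chromosome 3. Mpo is on chromosome 11, Ctsg on chromosome 14 and Lcn2 on chromosome 2. The promoters were read from RefSeq (GRCm38.p6), and all 10 genes matched. The stretches below show what the primary and secondary sets have upstream of their start sites. In the primary genes the capitals mark AGGAAGT, letters bound by PU.1, the ETS factor that directs myeloid development. They were chosen after these promoters had been read. The stretches are 5′ to 3′ on the strand of the gene: Elane (chr10:79886162-79886311, plus strand), Mpo (chr11:87793534-87793633, plus), Prtn3 (chr10:79879517-79879666, plus) and Ctsg (chr14:56102725-56102824, minus).
Elane: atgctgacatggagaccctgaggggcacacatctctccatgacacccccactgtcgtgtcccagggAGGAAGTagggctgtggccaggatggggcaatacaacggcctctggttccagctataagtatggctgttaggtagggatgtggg
Mpo: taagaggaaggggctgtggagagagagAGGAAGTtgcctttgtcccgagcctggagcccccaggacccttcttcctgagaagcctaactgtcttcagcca
Prtn3: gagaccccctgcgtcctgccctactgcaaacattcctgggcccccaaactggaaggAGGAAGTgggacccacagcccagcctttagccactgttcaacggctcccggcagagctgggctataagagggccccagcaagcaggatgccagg
Ctsg: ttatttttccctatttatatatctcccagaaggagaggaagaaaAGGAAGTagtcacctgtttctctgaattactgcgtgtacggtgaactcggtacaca

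In the secondary genes the capitals mark TTGCNNAA on either strand, the letters of C/EBP factors, which act in myeloid cells and include the granulocyte factor C/EBPε. The stretches are from Ngp (chr9:110419658-110419807, plus strand), Ltf (chr9:111019192-111019291, plus) and Lcn2 (chr2:32387890-32387989, minus).
Ngp: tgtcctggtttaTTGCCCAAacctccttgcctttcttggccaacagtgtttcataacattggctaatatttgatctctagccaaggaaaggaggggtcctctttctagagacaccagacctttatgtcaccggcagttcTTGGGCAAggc
Ltf: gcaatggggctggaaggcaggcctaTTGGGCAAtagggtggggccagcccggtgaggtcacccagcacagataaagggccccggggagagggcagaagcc
Lcn2: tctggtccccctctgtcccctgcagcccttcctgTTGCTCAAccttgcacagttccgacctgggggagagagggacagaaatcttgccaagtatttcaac

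Over the 250 bases before the start, AGGAAGT occurred on either strand in 4 of the 4 primary genes, in 0 of the 4 secondary genes and in S100a8. It occurred in 7.69% of the 32851 promoters of the same length. TTGCNNAA occurred in 3 of the 4 secondary genes, in 0 of the 4 primary genes and in S100a9, against 9.56% of all promoters. Camp, the secondary gene without a match, is not among the stretches shown. The STAT motif TTCNNNGAA (a GAS site) occurred in 1 of the 10 genes, Ctsg, against 7.02% of all promoters. No match of one motif overlapped a match of another. These are matches of letters, and no binding was measured.

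Levels are given as RPKM, reads scaled to the length of the gene and to the depth of the library, which makes genes of different length comparable. The depth, estimated from the smallest values of short receptor genes, was 29.5 to 43.2 M reads per library. At the lowest of these depths, a 1 kb gene with 3 reads would have 0.102 RPKM, and values near or below that cannot be told from 0. Tests used log2(RPKM + 1) in limma, with Benjamini-Hochberg adjustment over all genes fitted, and a call needed a fold change above 1.5 with an adjusted p under 0.05. The libraries of a group come from independent experiments, and p-values measure the spread between them. The library names of replicate 1 on days 3 and 6 hold a year before that of the other 14 libraries.

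On day 0, all 10 genes were abundant in both genotypes, and the primary and secondary genes took opposite orders over the 3 replicates. Elane was at 216, 373 and 397 RPKM in WT replicates 1, 2 and 3, and at 213, 253 and 368 in DKI. Mpo, which makes hypochlorous acid, was at 176, 346 and 361 RPKM in WT and 176, 262 and 371 in DKI. Prtn3 was at 264, 379.5 and 515 RPKM in WT and at 309, 318 and 527 in DKI. Replicate 1 was thus the lowest and replicate 3 the highest for these 3 genes in both genotypes. Ctsg took the same order, at 91.3, 192 and 203 RPKM in WT and 109, 153 and 199.96 in DKI.

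The secondary genes were highest in replicate 1. Ngp, a cathelicidin-related granule protein, was at 374, 263 and 75.2 RPKM in WT and at 463, 204 and 59.8 in DKI. Camp was at 278, 202 and 58.3 RPKM in WT and at 301, 132 and 51.3 in DKI. Ltf, the iron-binding lactoferrin, was at 50.3, 31.5 and 8.78 RPKM in WT and at 69.4, 31.0 and 7.68 in DKI. Replicate 3 was the lowest for these 3 genes in both genotypes. Lcn2, which binds bacterial siderophores, was at 178, 89.5 and 50.04 RPKM in WT and at 252, 76.6 and 78.5 in DKI, so that DKI replicates 2 and 3 were close.

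S100a8 and S100a9 were also lowest in replicate 3. S100a9 was at 1577, 1183 and 409 RPKM in WT and at 1871, 821 and 439 in DKI. S100a8 was at 1366, 1497 and 599 RPKM in WT and at 1722, 1005 and 759 in DKI. The pair made up 0.250% to 0.920% of all RPKM in a day 0 library, and in DKI replicate 1 S100a9 was at rank 7 and S100a8 at rank 10 by abundance.

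The sum of the 4 primary genes was 746 to 1476 RPKM on day 0, and that of the 4 secondary genes 192 to 1086 RPKM. The log2 ratio of the first sum to the second was -0.24, 1.14 and 2.94 in WT and -0.43, 1.15 and 2.89 in DKI. Same-numbered WT and DKI libraries were close in this ratio, while the replicates of either genotype were far apart. The proliferation gene Top2a was also highest in replicate 3, at 163, 172 and 254 RPKM in WT and 168, 164 and 264 in DKI. Fcnb, listed like Top2a as a progenitor marker, was lowest there, at 77.6, 70.5 and 61.4 RPKM in WT and 78.5, 52.6 and 51.9 in DKI. Klf4, a factor of the monocyte lineage, was at 89.0, 93.1 and 262 RPKM in WT and 99.9, 77.5 and 258 in DKI. The basophil protease Mcpt8 was at 55.8, 21.2 and 4.83 RPKM in WT and at 26.2, 11.05 and 17.4 in DKI. Their part in the split of the granule genes was not tested. In bulk RNA, fewer cells of a type and less RNA per cell cannot be told apart.

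**Figure D1:**
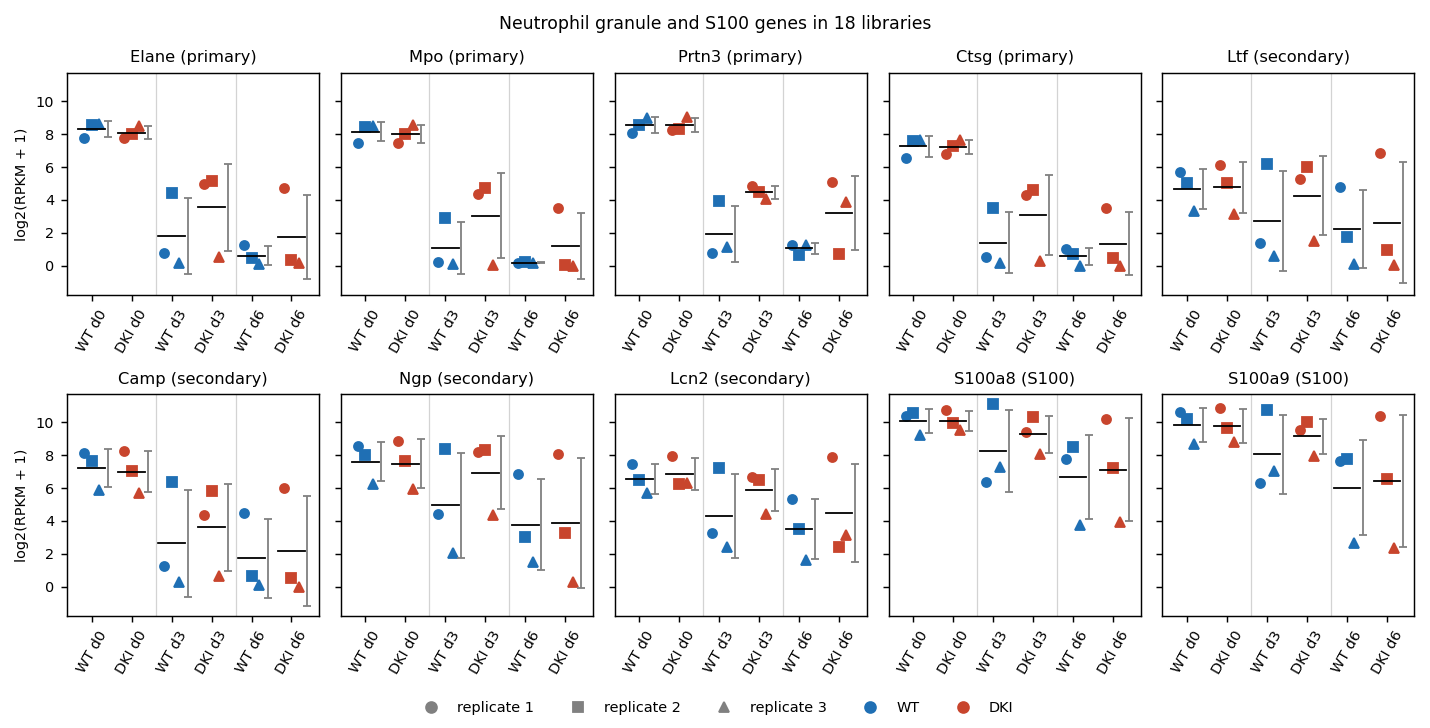
Level of each of the 10 genes as log2(RPKM + 1) in every library, with WT in blue, DKI in red and the replicate number given by the marker; black lines are group means and grey bars 1 SD on that scale (n = 3). On day 0 the primary genes are lowest in replicate 1 and the secondary genes lowest in replicate 3, except Lcn2 in DKI, and on days 3 and 6 single libraries stand far above the others of their group.

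By day 3 with GM-CSF, the primary granule genes had fallen in both genotypes, while of the 6 secondary and S100 genes Camp passed the test in WT. For Camp the adjusted p was 0.0857 in DKI, and the genotype-by-time difference was 1.19 (adjusted p = 0.863 in limma). In WT, Elane was at 0.709, 20.4 and 0.101 RPKM, and in DKI at 29.8, 34.7 and 0.419. Mpo was at 0.156, 6.57 and 0.0489 RPKM in WT and at 19.6, 25.04 and 0.0252 in DKI. Ctsg was at 0.424, 10.4 and 0.0931 RPKM in WT and at 18.8, 23.3 and 0.192 in DKI. In each of these, WT replicate 2 and DKI replicates 1 and 2 were the high libraries, and every day 3 value was below every day 0 value of its genotype. Prtn3 also did not overlap with day 0, at 0.700, 13.9 and 1.22 RPKM in WT and at 27.2, 21.5 and 15.5 in DKI.

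In WT, the log2 fold change from day 0 to day 3 was -6.54 ± 1.04 (SE) for Elane, -7.07 ± 0.76 for Mpo, -6.61 ± 0.78 for Prtn3 and -5.88 ± 0.86 for Ctsg (limma, adjusted p between 0.000633 and 0.00269). With Camp, 5 of the 10 genes were called lower, beside 22.8% of all 9938 genes fitted. Camp fell by 4.59 on the log2 scale (adjusted p = 0.0427 in limma), although its day 3 value of 81.9 RPKM in replicate 2 lay above its lowest day 0 value. This call was lost in 8 of 13 alternatives, 5 of which left out a single library (any WT day 0 library, or day 3 replicate 1 or 3; adjusted p = 0.0523 to 0.130 in limma). In DKI, the change was -4.55 ± 1.19 for Elane, -4.98 ± 1.19 for Mpo, -4.09 ± 0.30 for Prtn3 and -4.18 ± 1.11 for Ctsg (limma, adjusted p between 0.000711 and 0.0280). These 4 of 10 genes were called lower, beside 21.1% of 9922 genes. The groups did not overlap for 4 of 10 genes in either genotype, beside 32.2% (WT) and 34.6% (DKI) of all genes that were lower without overlap. The DKI calls for Elane, Mpo and Ctsg were lost when any 1 of the DKI day 0 libraries was left out, which left Prtn3 as the only gene called (adjusted p between 0.0502 and 0.0835 for the others in limma).

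The secondary genes on day 3 had wide ranges within each genotype. Ltf was at 1.56, 70.9 and 0.499 RPKM in WT and at 38.0, 62.9 and 1.80 in DKI. Camp was at 1.42, 81.9 and 0.208 RPKM in WT and at 19.2, 54.8 and 0.590 in DKI. Ngp was at 20.8, 335 and 3.19 RPKM in WT and at 287, 314 and 19.6 in DKI. WT replicate 2 and DKI replicates 1 and 2 were the high libraries, although Camp in DKI replicate 1 was below every day 0 value, and for Ltf the WT replicate 2 value was above all 6 day 0 values, while WT replicates 1 and 3 and DKI replicate 3 were low. Lcn2 was at 8.77, 149 and 4.23 RPKM in WT and at 103, 90.1 and 20.4 in DKI. S100a8 was at 81.9, 2192 and 153 RPKM in WT and at 684, 1286 and 272 in DKI, and S100a9 at 79.8, 1757 and 131 in WT and 729, 1023 and 249 in DKI.

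The log2 fold change of these genes from day 0 was between -2.65 (Ngp) and -1.78 (S100a9) in WT, Camp aside. In DKI it was between -3.40 (Camp) and -0.49 (Ltf), and none of the 6 secondary and S100 genes was called. WT day 3 replicate 2 decided the WT result. Without it, all 10 genes were called lower, beside 39.4% of 9919 genes called in either direction, with changes such as -3.69 ± 0.71 for Ltf, -4.36 ± 0.91 for Ngp and -3.24 ± 0.48 for S100a8 (limma, adjusted p = 0.0105, 0.0140 and 0.00500). The day 3 means of the 4 primary genes, Ltf and Camp were then below 2 RPKM, so these 6 passed the filter through day 0 alone. In that library the pair S100a8 and S100a9 made up 0.927% of all RPKM, more than in any other of the 18 libraries.

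**Figure D2:**
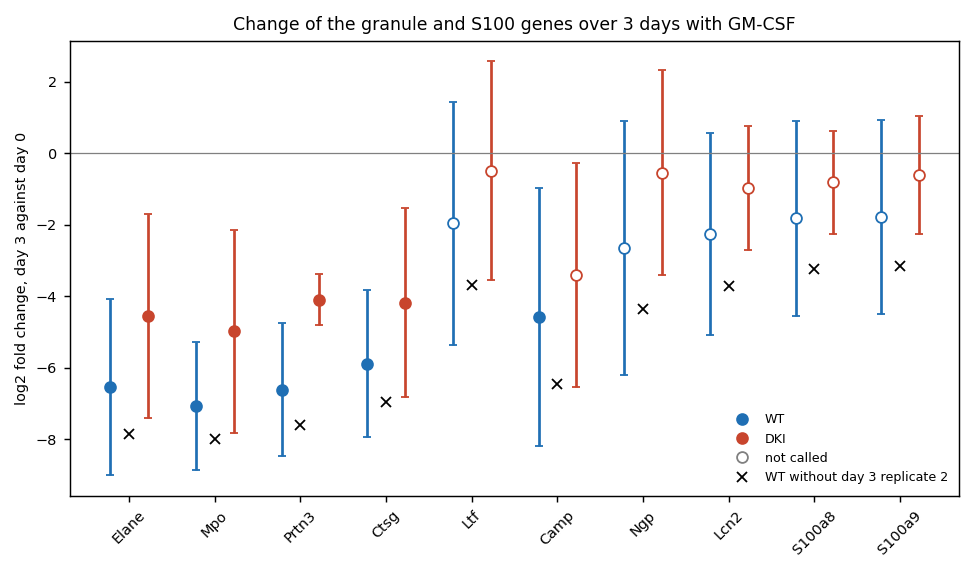
Log2 fold change of each gene from day 0 to day 3 in WT (blue) and DKI (red) with 95% intervals from limma; filled points were called, open points were not, and crosses show WT without day 3 replicate 2. The 4 primary genes lie between -7.07 and -4.09 with intervals below 0, whereas the intervals of Ltf, Ngp, Lcn2, S100a8 and S100a9 include 0.

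Relative to the primary sum, the secondary sum was larger in every day 3 library. The log2 ratio of primary to secondary RPKM was -4.03, -3.63 and -2.48 in WT and -2.23, -2.32 and -1.39 in DKI, all below the day 0 values. Without Prtn3 and Ngp, the most abundant gene of each set, it was -4.34 in WT replicate 3 and -5.16 in DKI replicate 3. The remaining primary genes were at most 0.101 and 0.419 RPKM there, some near or below the lower limit, so these values are not exact. The mean of the full ratio was -3.38 ± 0.81 (SD, n = 3) in WT and -1.98 ± 0.51 in DKI on day 3. On day 0 it had been 1.28 ± 1.59 and 1.21 ± 1.66. The ratio of Ngp to Camp, both secondary granule genes, was 1.17 to 1.54 in the 6 day 0 libraries and 4.09 to 33.3 in the 6 day 3 libraries, so the secondary genes did not keep their proportions.

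On day 6, 1 DKI library held most of the granule RNA. Elane was at 1.34, 0.354 and 0.0718 RPKM in WT and at 25.1, 0.279 and 0.126 in DKI. Ltf was at 26.6, 2.38 and 0.0843 RPKM in WT and at 114, 0.916 and 0.0211 in DKI. Ngp was at 115, 6.96 and 1.82 RPKM in WT and at 273, 8.43 and 0.199 in DKI. Replicate 1 of both genotypes was the high one for the secondary genes, and for Elane it was DKI replicate 1 alone. Mpo was at 0.104 to 0.174 RPKM in WT and at 10.5, 0.0403 and 0 in DKI. Ctsg was at 0.998, 0.628 and 0 RPKM in WT and at 10.5, 0.358 and 0 in DKI.

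On day 6 Camp was at 21.3, 0.544 and 0.0551 RPKM in WT and at 63.1, 0.428 and 0 in DKI. Lcn2 was at 38.6, 10.4 and 2.13 RPKM in WT and at 239.9, 4.24 and 7.65 in DKI. Replicate 1 was again the highest in both genotypes. S100a8 was at 217, 361 and 12.6 RPKM in WT and at 1203, 148 and 14.2 in DKI, and S100a9 at 199, 219.7 and 5.41 in WT and 1331, 94.6 and 4.14 in DKI. The pair was thus highest in replicate 2 in WT and in replicate 1 in DKI. In replicate 3 of both genotypes the pair made up less than 0.005% of all RPKM, and S100a9 ranked 7512 in WT and 7717 in DKI by abundance.

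From day 3 to day 6, 0 of 10 genes were called in limma in either genotype, as were 0% of 9613 genes in WT and 0% of 9540 in DKI. At an unadjusted p under 0.05 there were 0 of the 10 genes in either genotype, beside 722 genes in WT and 93 in DKI over the whole table. The log2 fold changes of the 10 genes ranged from -2.02 to -0.48 in WT and from -3.08 to -1.24 in DKI. The day 6 log2 ratios of primary to secondary RPKM were -5.72, -3.55 and -1.41 in WT and -3.12, -3.45 and 0.77 in DKI. Without the most abundant gene of each set (Prtn3 and Ngp), the ratio in DKI replicate 3 was -5.93. There Elane was at 0.126 RPKM and Mpo and Ctsg at 0, near or below the lower limit, so this value is not exact.

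**Figure D3:**
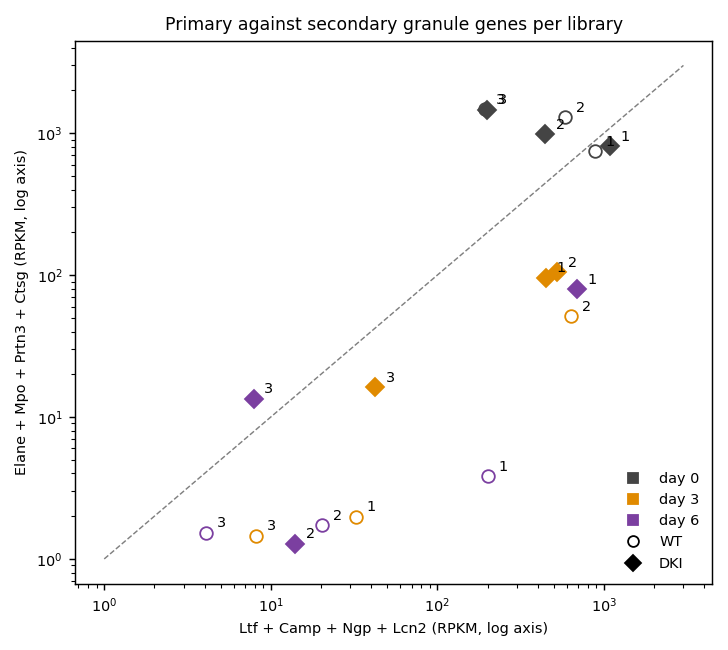
Sum of the 4 primary genes against the sum of the 4 secondary genes in each of the 18 libraries (RPKM, both axes log), with the day by colour, WT as open circles, DKI as filled diamonds and the replicate number beside each point; the dashed line marks equal sums. The day 0 libraries lie above 700 RPKM of primary genes, all other libraries lie at or below 104 RPKM, and DKI day 6 replicate 3 is the only MDC library above the line.

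The comparison of DKI with WT asks whether the loss of STAT5 tetramers changed these genes. On day 0 the log2 fold changes of the 10 genes ranged from -0.23 (Elane) to 0.31 (Lcn2), and 0 of 10 were called in limma, beside 0% of all 9179 genes. At an unadjusted p under 0.05 there were 0 of the 10 and 44 of all genes. The 95% interval of the difference was -0.98 to 0.52 for Elane and -0.77 to 0.77 for Prtn3. The intervals of the secondary genes were wider, such as -2.30 to 2.04 for Ngp. Differences within them were not detectable in this fit, which did not pair the libraries. Same-numbered WT and DKI libraries were closer for Ngp, at 374 and 463, 263 and 204, and 75.2 and 59.8 RPKM.

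On day 3, the mean log2(RPKM + 1) of the 10 genes was higher in DKI, by 0.96 (Camp) to 2.51 (Prtn3), but 0 of 10 were called, beside 7.42% of 9740 genes. On the RPKM scale the DKI mean was lower for Camp (24.9 against 27.8) and S100a8 (747 against 809), and the log2 difference of Camp turned negative in 3 of 13 alternatives. Prtn3 was the only gene whose groups did not overlap, since its lowest DKI value of 15.5 RPKM was above the highest WT value of 13.9. Such groups, higher in DKI, were found for 13.4% of all genes. Its difference was 2.51 ± 0.80 (SE), with a 95% interval from 0.58 to 4.45 and an adjusted p of 0.116 in limma, and it was 1 of 10 with an unadjusted p under 0.05, as were 2583 of the 9740 genes. Without WT day 3 replicate 2, Prtn3 was called higher in DKI by 3.49 ± 0.28 (adjusted p = 0.0221 in limma), but its WT mean was then below 2 RPKM and it passed the filter through the DKI libraries alone. The genotype-by-time difference of Prtn3 from day 0 to day 3 was 2.51 ± 0.94 (adjusted p = 0.216 in limma), and 0 of 10 genes were called for it, beside 2.91% of 10212 genes. It was called without the same library, at 3.49 ± 0.46 (adjusted p = 0.00548 in limma). When replicate 1, with the earlier year in its name, was left out of both genotypes, the day 3 difference of Prtn3 was 1.74 ± 0.94 (adjusted p = 0.347 in limma).

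On day 6, the mean log2(RPKM + 1) was again higher in DKI for the 10 genes, by 0.08 (Ngp) to 2.16 (Prtn3), and 0 of 10 were called, beside 7.54% of 9842 genes. Prtn3 was at 1.35, 0.575 and 1.36 RPKM in WT and at 33.1, 0.606 and 13.3 in DKI, so that DKI replicate 2 lay among the WT libraries. Its difference was 2.16 ± 1.05 (adjusted p = 0.229 in limma). Without DKI day 6 replicate 2 it was called, at 3.42 ± 0.42 (adjusted p = 0.0140 in limma). The direction of 9 genes, all but Prtn3, rested on DKI day 6 replicate 1. Without it Ltf (-1.74), Camp (-1.47), Ngp (-2.03), Lcn2 (-0.74), S100a8 (-1.10) and S100a9 (-1.57) were lower in DKI. None of these was called. Other single libraries turned signs as well. Of 6 fits that each left out 1 library, the sign turned in 3 for Camp and Ngp and in 2 for Ltf, S100a8 and S100a9. Elane, Mpo and Ctsg could not be fitted without DKI day 6 replicate 1, because all means were then below the filter. The mean of their other DKI libraries was below the WT mean. The mean of each primary gene on day 6 was below 2 RPKM in WT, so that these genes passed the filter on low values through the DKI libraries alone. For the change from day 3 to day 6, 0 of the 10 genes and 0% of 9985 genes differed between genotypes (limma), with 0 and 89 at an unadjusted p under 0.05.

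**Figure D4:**
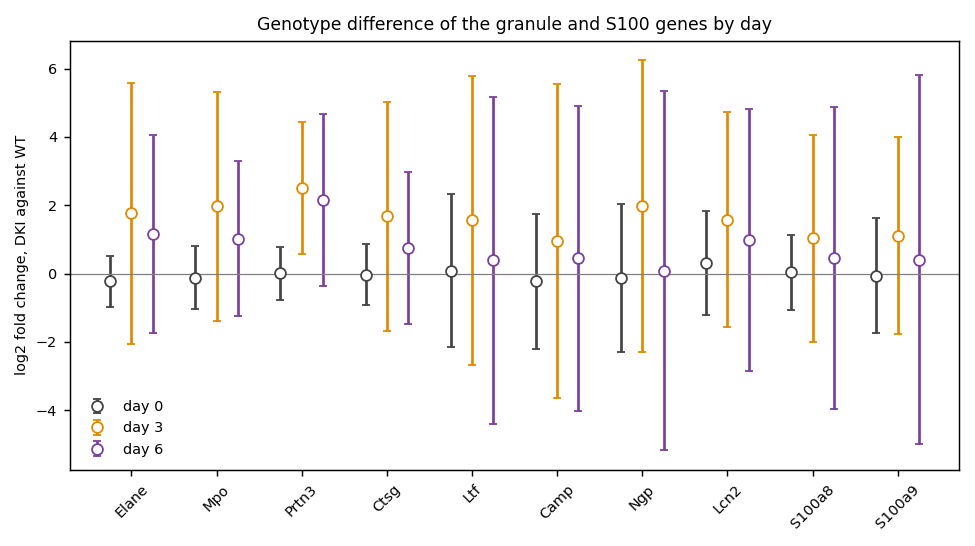
Log2 fold change of DKI against WT for each gene on day 0 (grey), day 3 (orange) and day 6 (purple), with 95% intervals from limma (3 libraries per genotype); open points mark that none was called. The interval of Prtn3 on day 3, from 0.58 to 4.45, is the only one that leaves out 0, and on day 6 the intervals of the secondary and S100 genes are the widest.

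Prtn3 parted from its neighbour Elane in the replicate 3 libraries of DKI. In DKI replicate 3, Prtn3 was at 15.5 RPKM on day 3 and 13.3 on day 6, whereas Elane was at 0.419 and 0.126. The difference log2(Prtn3 + 1) - log2(Elane + 1) was 3.54 and 3.67 in these libraries. In the other 16 libraries it ranged from -0.67 to 1.14. The 2 highest of those 16, at 1.008 and 1.138, were WT replicate 3 on days 3 and 6, with Prtn3 at 1.22 and 1.36 RPKM and Elane at 0.101 and 0.0718. In DKI replicate 3, Mpo (0.0252 and 0 RPKM) and Ctsg (0.192 and 0) were also near the lower limit, so Prtn3 was the only primary gene above 1 RPKM there. On day 6 it gave 13.3 of the 13.5 RPKM of the primary sum in that library. Reads shared between these related proteases were not checked.

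To describe carry-over of granulocytic cells, the 12 MDC libraries were ranked for each gene. For 8 of the 10 genes the 4 highest libraries were the same: WT day 3 replicate 2, DKI day 3 replicates 1 and 2, and DKI day 6 replicate 1. The exceptions were Prtn3, for which DKI day 3 replicate 3 (15.5 RPKM) was ahead of WT day 3 replicate 2 (13.9), and Camp, for which WT day 6 replicate 1 (21.3) was ahead of DKI day 3 replicate 1 (19.2). Of all 10417 genes with a mean above 2 RPKM in some group, these members included, 0.576% had these as their 4 highest MDC libraries. In the marker lists these were 3 of 12 progenitor markers (Ms4a3, Gfi1 and Fcnb), 5 of 18 neutrophil markers, 3 of 12 primary and 3 of 13 secondary and tertiary companions, 2 of 13 granulopoiesis factors (Gfi1 and Klf5), and 1 of 12 eosinophil, basophil and mast cell markers (Prss34). Ms4a3, Gfi1 and Cd177 are in more than 1 of these lists. It was none of 12 monocyte markers. Among the other progenitor markers, Cd34 was at 15.3, 0.815, 11.1 and 4.37 RPKM in the 4 libraries and at up to 22.03 in the others, and the proliferation genes Mki67 and Top2a shared 1 of the 4 places. Cd177, a surface protein of neutrophils, was at 34.5, 15.0, 25.7 and 33.5 RPKM in these 4 libraries, and at most 6.76 in the other 8. Ms4a3, which marks granulocyte and monocyte progenitors, was at 16.6, 13.2, 19.3 and 13.2 RPKM, and at most 2.12 in the others. Fcnb, a ficolin of immature neutrophils, was at 5.86, 2.73, 5.07 and 5.64 RPKM, and at most 0.767 in the others. Prg2, the major basic protein of eosinophils, was at 20.4, 21.7, 27.1 and 35.2 RPKM, and it was as high in WT day 6 replicate 1 (22.4).

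Markers of mature neutrophils did not all take that order. Ly6g, which defines mouse neutrophils, was at 0.525, 7.03, 1.38 and 21.5 RPKM in the same 4 libraries. It was at 6.21 in DKI day 6 replicate 3, where Ltf, Camp and Ngp were below 0.2. On day 0 it was at 1.14 to 3.15 RPKM. Cxcr2, the chemokine receptor of mature neutrophils, was highest in WT day 3 replicate 2 (19.7), but it was at 13.03 in WT day 3 replicate 3 and 16.7 in WT day 6 replicate 3, where the granule genes were low. Retnlg was at 2.19, 8.53, 12.2 and 28.5 RPKM in the 4 libraries and at 12.7 in DKI day 3 replicate 3. Over the list of 18 neutrophil markers, the summed level ranged from 320 to 509 RPKM in WT and 347 to 554 in DKI on day 0, from 376 to 628 and 817 to 1449 on day 3, and from 294 to 856 and 603 to 1060 on day 6. The gene G0s2 was listed at 0 in all 18 libraries. This sum includes Mmp8, a collagenase of neutrophils, which was at 83.7 to 1113 RPKM in the 12 MDC libraries and highest in DKI day 3 replicate 3. The part of granulocytes in the levels of the 10 genes was not tested.

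**Figure D5:**
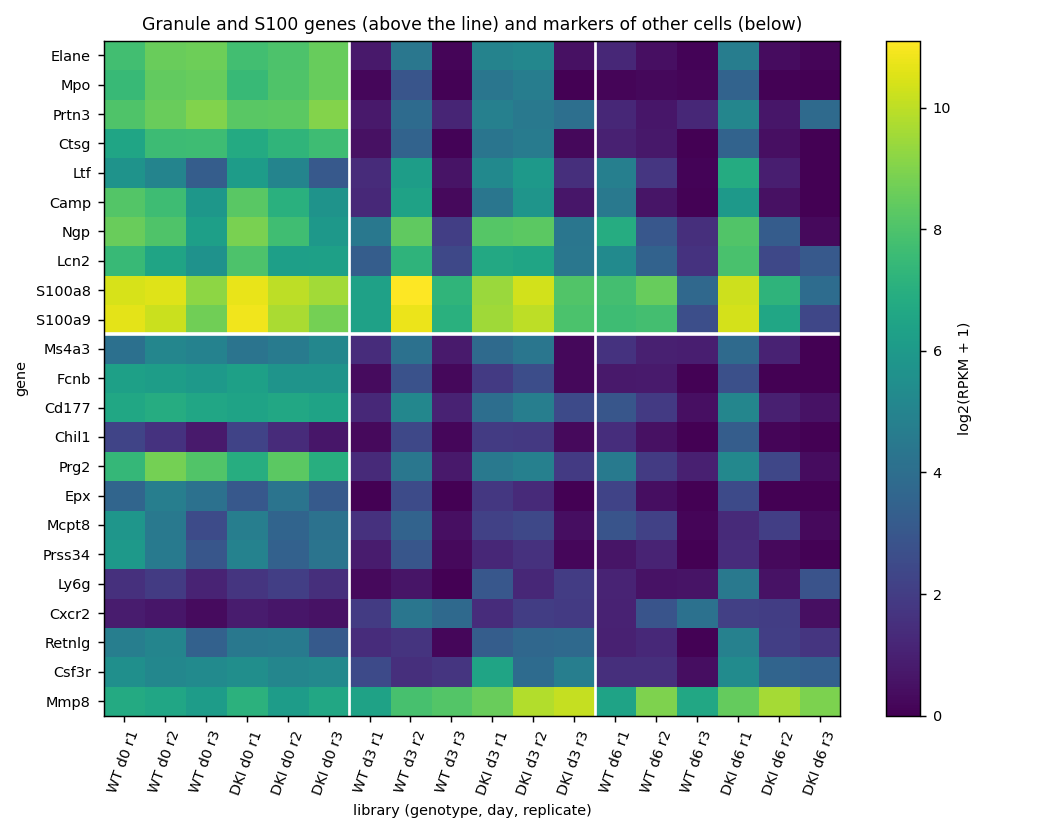
Levels of the 10 genes (above the white line) and of 13 markers of neutrophils, their progenitors, eosinophils and basophils (below it) as log2(RPKM + 1) in the 18 libraries, with d for day and r for replicate. WT d3 r2, DKI d3 r1 and r2 and DKI d6 r1 are bright for most of the 10 genes and for Ms4a3, Fcnb and Cd177, whereas Mmp8 and Cxcr2 are also bright in other MDC libraries.

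The genes whose levels were most like those of the members were found by Pearson's r with the mean log2(RPKM + 1) of each set, over the 18 libraries and 10407 genes. These values are a description, since the libraries share groups. For the primary set they were Cldn15 (0.99), Plac8 (0.98), Fcnb (0.98), Ly6a2 (0.97) and Trem3 (0.97). For the deviations from the group means they were Ms4a3 (0.96), Cldn15 (0.94), Lipg (0.93), Fcnb (0.92) and Plac8 (0.90). For the secondary set they were Chil1, Cd177, Mogat2, Ets1 and Ms4a3 (0.90 to 0.88), and for its deviations Chil1 (0.97), Cd177 (0.94), Lipg (0.93), Itgb2l (0.93) and Fcnb (0.92). For the S100 pair they were Pmm2 (0.93), Mien1, Ddx41, Zfp35 and Cd177, and for its deviations Zfp35 (0.92), Stfa2l1, Pmm2, Slc40a1 and Cd177. Chil1, a chitinase-like protein of specific granules, was at 3.80, 2.13 and 0.764 RPKM in WT on day 0 and thus took the order of the secondary genes, whereas Cd177 was at 84.5 to 117 RPKM in the 6 day 0 libraries.

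The genes listed as granule companions changed in both directions. The counts of called list genes stand beside 22.8% of all genes called lower and 20.3% called higher in WT from day 0 to day 3, and 21.1% and 13.1% in DKI. Genes whose mean was at or below 2 RPKM in one of the groups compared passed the filter only through the group where they were high. Among the called genes named here these were Nkg7, Flt3 and Myb in both genotypes, Mmp25, Kit and Gfi1b in WT, and Serpinb9 and Siglecf in both. Of 12 primary granule companions, 10 were fitted from day 0 to day 3. In WT 5 fell (Ms4a3, Serpinb1a, Cst7, Nkg7 and Igsf6) and Calr and Gusb rose, and the median log2 fold change was -0.89, against -6.57 for the 4 members and -0.05 for all genes. In DKI 3 fell (Srgn, Serpinb1a and Nkg7) and Hexa and Gusb rose. Srgn, the proteoglycan core that packs granule proteases, was at 594 to 811 RPKM in WT on day 0 and 471 to 705 on day 3. Ctsc, which activates the granule proteases, was at 309 to 484 and 121 to 293 RPKM (log2 fold change -0.94, adjusted p = 0.0619 in limma). Igsf6 alone of these differed between genotypes, and was higher in DKI by 2.47 on day 3 (adjusted p = 0.00974) and 2.36 on day 6 (adjusted p = 0.0405 in limma).

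Of 14 secondary and tertiary granule companions, 10 were fitted on day 3 against day 0. In WT, 4 fell (Cd177, Pglyrp1, Hp and Slpi) and Mmp25 and Adam8 rose. In DKI, Cd177 and Hp fell and Mmp8 and Adam8 rose. Hp, the hemoglobin-binding haptoglobin, was at 352 to 603 RPKM in WT on day 0 and at 10.8 to 34.7 on day 3 (log2 fold change -4.84 ± 0.45, adjusted p = 0.000389 in limma). Adam8 was at 5.30 to 52.3 RPKM in WT on day 0 and at 275 to 337 on day 3, and Mmp8 at 69.7 to 137 RPKM in DKI on day 0 and 372 to 1113 on day 3. On day 3, 0 of these companions differed between DKI and WT, and on day 6 Mmp25 was lower in DKI.

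Of 13 transcription factors of granulocyte development, 11 were fitted from day 0 to day 3. Cebpb, Cebpe, Gfi1b, Myb and Klf4 fell in WT, where Cebpa rose, and Cebpb, Myb and Klf4 fell in DKI. Spi1, which encodes PU.1, was at 306 to 385 RPKM in WT on day 0 and 309 to 413 on day 3 (log2 fold change -0.01 ± 0.18, adjusted p = 0.974 in limma). The 4 primary genes fell over the same days, and the part of PU.1 in this fall was not tested. In limma, 0 of the 11, 9 and 10 fitted on days 0, 3 and 6 were called between DKI and WT, beside 0%, 7.42% and 7.54% of all genes. Of 12 progenitor markers, 7 fell in WT (Flt3, Ms4a3, Cebpe, Myb, Fcnb, Top2a and Mki67) and 5 in DKI, and Cd63 rose in both. Kit rose in WT. On day 6, Cd34 and Sox4 of this list were lower in DKI.

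Among 14 other S100 genes, 6 were fitted. From day 0 to day 3, S100a1 and S100a11 rose in WT, none fell, and none was called in DKI. S100a4 was at 1145 to 1673 RPKM in WT on day 0 and 1612 to 1720 on day 3. In DKI it was at 156 RPKM in day 3 replicate 1, 234 in day 6 replicate 1 and 438 in day 6 replicate 3, and at 1733 to 2109 in the other 3 DKI libraries of those days. Of 14 genes of S100 receptors and protease inhibitors, Tlr4, a receptor for S100A8 and S100A9, was called higher on day 3 than on day 0 in DKI, with Cd36, Serpinb6a, Serpinb9 and Timp2. In WT, Cd36, Serpinb6a and Serpinb9 rose, and Ly96, Cd14, Serpinb1a and Slpi fell. Serpinb6a, an inhibitor of serine proteases, and Timp2 were higher in DKI on days 3 and 6, Ly96 was higher on day 3, and Serpinb9 was lower on day 6.

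Of the neutrophil markers, 2 of 16 fitted were called between genotypes on day 3 and 1 of 17 on day 6, beside 7.42% and 7.54% of all genes. Csf3r, the receptor for G-CSF, was at 4.67, 1.85 and 2.24 RPKM in WT and at 89.3, 13.5 and 26.0 in DKI (log2 fold change 3.14 ± 0.66, adjusted p = 0.0426 in limma), and it was higher by 2.98 on day 6 (adjusted p = 0.0362). Retnlg was higher by 2.49 on day 3 (adjusted p = 0.0213 in limma). The WT means of Retnlg on day 3 and of Csf3r on day 6 were below 2 RPKM, so both passed the filter through the DKI libraries alone. From day 0 to day 3, Csf3r fell by 3.42 on the log2 scale in WT and its change was -0.22 in DKI (adjusted p = 0.798 in limma). The change of Csf3r differed between the genotypes by 3.20 ± 0.74 (adjusted p = 0.0478 in limma).

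Markers of other cells were checked in the same libraries. Of 12 monocyte markers, 6 fell and 2 rose in WT by day 3 (22.8% and 20.3% of all genes), and 5 fell and 3 rose in DKI (21.1% and 13.1%). Ly6c2, which encodes a Ly6C antigen of classical monocytes, was at 953 to 1762 RPKM in WT on day 0 and 11.2 to 39.8 on day 3, and in DKI day 3 replicate 1 it was still at 775. Of 8 dendritic cell markers, 6 rose in WT and 4 in DKI, while Flt3 fell in both. Of 12 eosinophil, basophil and mast cell markers, 4 fell in WT and 5 in DKI and 2 rose in each (Siglecf and Gata2), and their summed level was 191 to 584 RPKM on day 0 and 29.1 to 163 in MDCs. Of 8 B cell, 8 T and NK cell and 8 erythroid markers, 1, 0 and 3 were fitted on day 3 against day 0 in WT. The summed levels were at most 14.2 RPKM for B cells and 10.3 for T and NK cells, and 184 for erythroid cells, in WT day 3 replicate 2. Nearly all of the latter was Car2, a carbonic anhydrase, and the globin genes Hba-a1, Hba-a2 and Hbb-bs were listed at 0 in the 12 MDC libraries.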

How the data were processed

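RNA-seq was done on 18 libraries (6 groups of 3). The RPKM values were deposited by the authors, who aligned reads to mm10 with Subread and counted RefSeq genes with featureCounts. Versions, strandedness and the treatment of multi-mapped reads are not given in the sources used here. RPKM are not counts, so no count model was used, and depth was estimated from the smallest values of 1177 receptor genes. Limits set from it cover counting error only.

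Values were tested as log2(RPKM + 1) with limma 3.58.1 in R 4.3.3 (lmFit and eBayes with a trend), leaving out genes whose mean was at or below 2 RPKM in every group compared. All fitted genes entered the adjustment. Other steps used Python 3.11.15, numpy 2.4.6, pandas 2.3.3 and matplotlib 3.10.9. The test was checked on simulated data. Of 20298 gene identifiers, 20082 matched RefSeq. The 10 members and the gene lists were chosen with earlier results of these data known. Named genes are the members, up to 4 of each list by mean RPKM, and the 5 genes per set most like the members. Other genes are named because they were called or differed, after their values were seen. Same-numbered libraries deviated together between genotypes (r = 0.163 to 0.865) and between days 3 and 6 (r = 0.125 to 0.743). The main fits nevertheless had no replicate block and did not pair the libraries, and the block was used only as an alternative. They did not between days 0 and 3 (r = -0.208 to 0.180).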

Additional observations from a re-analysis of the deposited data

How the results depend on the processing

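The alternatives were a pseudocount of 0.1, no filter on low values, median centring, quantile normalization, a fit of all 18 libraries, a replicate block, each library left out, and, chosen after seeing the data, the earlier-year libraries left out. Of 1268 gene values, 1153 kept direction and call, 84 took the other sign (0 of them called), 21 lost and 10 gained a call. Without single libraries, the number of the 10 genes called ranged from 4 to 10 for day 3 against day 0 in WT (beside 33.9% to 43.3% of all genes), 1 to 5 in DKI (19.9% to 34.4%), and 0 to 1 for DKI against WT on day 3 (2.02% to 7.36%), on day 6 (0.912% to 9.998%) and for genotype by time from day 0 to day 3 (1.23% to 3.29%). These shares count genes called in either direction. For day 3 against day 0 in DKI, 2 of the 10 genes were called with a pseudocount of 0.1, beside 3469 of 9922 genes in either direction. Without the filter 2 were called, beside 2995 of 16137 genes. The call of Camp in WT was lost without the filter (adjusted p = 0.0862 in limma), over all 18 libraries (0.0505) without the earlier-year libraries (0.123) and without any of 5 single libraries (0.0523 to 0.130). The mean log2 ratio of primary to secondary genes moved to -2.11 in WT on day 3 from mean log2(RPKM + 1), and to -2.57 in DKI on day 3 without the most abundant gene of each set. On day 6 the replicate spread was larger than the moves, which were from -1.93 to -4.05 in DKI without the most abundant genes and from -3.56 to -2.21 in WT from mean log2(RPKM + 1). The ratios without the most abundant genes rest in part on levels near or below the lower limit in DKI replicate 3. The cause of the moves was not tested. With the replicate block, Camp was called in DKI for day 3 against day 0 (-3.40, adjusted p = 0.0361 in limma), where the numbers do not pair the libraries, and no other call of the 10 genes changed.

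Signs also turned when single libraries were left out. For DKI against WT on day 0 the log2 fold changes ranged from -0.46 to 0.15 (Mpo), -0.25 to 0.24 (Prtn3), -0.40 to 0.20 (Ctsg), -0.61 to 0.90 (Ltf), -0.89 to 0.42 (Camp), -0.81 to 0.65 (Ngp), -0.26 to 0.77 (Lcn2), -0.38 to 0.30 (S100a8) and -0.64 to 0.44 (S100a9). On day 3 that of Camp ranged from -0.22 to 2.83, and on day 6 the ranges were -1.74 to 1.67 (Ltf), -1.47 to 1.82 (Camp), -2.03 to 1.89 (Ngp), -0.74 to 2.02 (Lcn2), -1.10 to 2.05 (S100a8) and -1.57 to 2.44 (S100a9). For day 3 against day 0 in DKI they were -1.36 to 0.89 (Ltf) and -1.32 to 0.75 (Ngp). For day 6 against day 3 they were -1.77 to 1.25 (Ltf), -2.29 to 0.95 (Camp), -2.72 to 0.53 (Ngp) and -1.77 to 0.65 (Lcn2) in WT and -2.19 to 0.016 (Prtn3) in DKI. For genotype by time from day 3 to day 6 they were -2.12 to 0.22 (Elane), -1.33 to 0.91 (Prtn3), -3.29 to 0.12 (Ltf), -2.43 to 0.86 (Camp), -2.31 to 0.45 (Lcn2), -2.14 to 1.014 (S100a8) and -2.67 to 1.34 (S100a9). Other settings that turned a sign were median centring for Prtn3 on day 0 (-0.014), quantile normalization for S100a8 on day 0 (-0.0010) and a pseudocount of 0.1 for Ngp on day 6 (-0.39). Without the earlier-year libraries, Camp on day 3 (-0.087), Ngp (-0.49), S100a8 (-0.56) and S100a9 (-0.76) on day 6, and genotype by time of S100a8 from day 0 to day 3 (-0.0050) were negative.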

Other observations

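Lipg, which encodes endothelial lipase, was among the genes most like both granule sets in deviations from the group means, yet it was near 0 on day 0. Its level was 0.0243 to 0.183 RPKM in the 6 day 0 libraries. It was at 10.6 RPKM in WT day 3 replicate 2, 17.3 and 10.2 in DKI day 3 replicates 1 and 2, and 16.1 in DKI day 6 replicate 1, the libraries with the most granule RNA among the MDCs, and at most 2.89 in the other 8 MDC libraries.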
